A study of Homo sapiens with 54 samples.

Results

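In T47D cells, 29107 of the 88869 acetylated regions listed with vehicle on chromosomes 1 to 22 and X shared no base with any region listed after the progestin R5020, which was 32.8% (95% Wilson interval 32.4 to 33.1). These 29107 regions, called vehicle-only here, were chosen by that absence alone. The other 59762 vehicle regions shared at least 1 base with an R5020 region and are called shared. T47D is an established human breast cancer line of luminal type that carries the estrogen and progesterone receptors. The cells received either vehicle, ethanol, or R5020, a synthetic agonist of the progesterone receptor (PR), for 1 h. Chromatin immunoprecipitation with sequencing was done with 3 libraries per antibody and treatment, for acetylated lysine 27 of histone H3 (H3K27Ac), for PR, and for proteins of RNA polymerase III transcription: subunits POLR3A, POLR3C, POLR3G, POLR3GL, initiation factor Brf1 and repressor Maf1. The 3 libraries of a group are represented by 1 peak list. No value below therefore carries a replicate error, no depth is known, and every interval covers counting error of regions only, although neighbouring regions are not independent. The 3 libraries of a group may be technical repeats, as nothing in the labels says that they were separate cultures. For 4 of the 54 libraries the title and the treatment tag disagree, 1 of them among the 3 R5020 POLR3G libraries and none among the H3K27Ac, PR and Maf1 libraries.

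H3K27Ac is placed by the acetyltransferases p300 and CBP, is removed by histone deacetylases, and marks promoters and enhancers in use. Ligand-bound PR enters chromatin mostly at enhancers that other factors have opened, recruits coactivators there, and can also lower the activity of genes, among them genes driven by the estrogen receptor. A region's absence from the R5020 list says that the peak caller made no call there. It does not measure by how much the signal differed. Many members had a low −log10 q and many lay beside an R5020 region, so the regions are named here by the rule that chose them.

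The vehicle-only regions rarely lay at gene starts, and the few that did are where sequence could be read. Of the promoter windows of protein-coding genes (RefSeq, GRCh38.p14, 250 bases before to 50 after the start, 22012 windows of 15712 genes), 275 were touched by a vehicle-only region and by no other H3K27Ac region of either list. Shown are 5 promoters that lie under vehicle-only regions, 5′ to 3′ on the strand of the gene. TMCC2 and ARHGAP26 carried the 2 vehicle-only regions of highest −log10 q that reached a promoter window. ISG15, HDAC4 and EHF were chosen after their values were seen, as the 3 list genes with the highest such region. Capitals mark SP1 boxes (GGGCGG), an ETS site (CCGGAAG) and overlapping interferon-stimulated response elements, on either strand.
TMCC2: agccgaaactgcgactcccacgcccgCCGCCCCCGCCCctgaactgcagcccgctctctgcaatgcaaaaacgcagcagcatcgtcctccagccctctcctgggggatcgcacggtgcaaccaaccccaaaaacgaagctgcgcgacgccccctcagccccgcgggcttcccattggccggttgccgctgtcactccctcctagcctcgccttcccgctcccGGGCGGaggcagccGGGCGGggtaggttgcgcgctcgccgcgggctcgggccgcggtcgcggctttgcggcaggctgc
ARHGAP26: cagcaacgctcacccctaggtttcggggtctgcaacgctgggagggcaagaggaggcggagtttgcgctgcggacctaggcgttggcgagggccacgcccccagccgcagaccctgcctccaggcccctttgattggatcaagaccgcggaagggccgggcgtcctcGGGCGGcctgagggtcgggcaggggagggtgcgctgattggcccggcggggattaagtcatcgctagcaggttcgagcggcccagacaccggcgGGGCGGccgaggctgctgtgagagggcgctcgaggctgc
ISG15: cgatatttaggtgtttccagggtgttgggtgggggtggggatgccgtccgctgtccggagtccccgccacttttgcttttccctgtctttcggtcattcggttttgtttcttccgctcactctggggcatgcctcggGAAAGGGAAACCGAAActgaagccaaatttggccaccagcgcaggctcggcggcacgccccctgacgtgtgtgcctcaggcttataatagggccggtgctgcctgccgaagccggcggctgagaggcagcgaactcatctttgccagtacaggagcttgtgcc
HDAC4: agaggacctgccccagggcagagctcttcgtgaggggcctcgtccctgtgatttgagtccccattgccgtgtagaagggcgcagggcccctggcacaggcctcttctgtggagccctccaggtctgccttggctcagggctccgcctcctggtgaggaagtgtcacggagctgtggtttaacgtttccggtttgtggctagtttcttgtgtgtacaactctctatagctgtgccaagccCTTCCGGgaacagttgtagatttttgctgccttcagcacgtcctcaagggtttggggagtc
EHF: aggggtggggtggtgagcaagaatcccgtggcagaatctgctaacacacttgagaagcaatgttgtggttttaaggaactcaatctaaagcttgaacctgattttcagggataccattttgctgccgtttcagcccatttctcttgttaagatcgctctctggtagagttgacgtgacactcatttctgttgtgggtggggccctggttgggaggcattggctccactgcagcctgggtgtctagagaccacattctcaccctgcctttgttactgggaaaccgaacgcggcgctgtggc

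TMCC2, a gene of an endoplasmic reticulum coiled-coil protein, had its window at chr1:205227696-205227995 on the plus strand entirely under a vehicle-only region (chr1:205227656-205228856). That region had a fold enrichment over background of 7.40 and a −log10 q of 22.5. The window was 71.7% G and C, with SP1 boxes on both strands. Of 6 TMCC2 promoter windows, 3 had a vehicle region within 1 kb and 0 had an R5020 region within 1 kb. ARHGAP26, which encodes a GTPase-activating protein, had 133 of the 300 bases at chr5:142770127-142770426 (plus strand) under a vehicle-only region of fold 7.80. An R5020 region began 169 bases from it, and both ARHGAP26 windows had an R5020 region within 1 kb.

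ISG15 encodes a ubiquitin-like protein induced by interferon. Its only listed window (chr1:1013247-1013546, plus strand) had 295 of 300 bases under the vehicle-only region chr1:1013252-1014588, with a fold of 5.21 and a −log10 q of 9.46. The nearest R5020 region was 3799 bases away. HDAC4, a class II histone deacetylase, had 271 bases of the window of 1 of its 5 listed starts (chr2:239267465-239267764, minus strand) under a vehicle-only region of fold 4.98. EHF, an epithelial ETS factor, had a window (chr11:34624007-34624306, plus strand) wholly under a vehicle-only region of fold 4.33. The next R5020 regions lay 87 bases from the HDAC4 region and 183 bases from the EHF region. Of the 5 listed HDAC4 starts 2 had an R5020 region within 1 kb, as did both EHF starts. ISG15 and TMCC2 had none at any listed start.

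The 275 windows differed in composition from the 13364 windows touched only by shared regions of the vehicle list. No comparison of these windows was matched by class of −log10 q. Over all members 78.6% were under a −log10 q of 5, against 33.0% of all shared regions. Median GC content of the windows was 59.3% against 66.3%, and the median ratio of observed to expected CpG was 0.398 against 0.840. A ratio above 0.6 was found in 34.2% of the vehicle-only windows (28.8 to 40.0), in 83.8% of the shared windows and in 62.1% of all windows. SP1 boxes were present in 40.7% against 72.3%, a difference of −31.6 percentage points (Newcombe interval −37.3 to −25.6), and in 56.3% of all windows. The ETS letters CCGGAAG stood in 4% against 18.8%, with 12.8% of all windows. Against shared windows the reverse held for 4 motifs that are less rich in G and C. Their vehicle-only shares were near those of all windows, which lay within each vehicle-only Wilson interval. TATAAA was in 10.5% against 4.78% (all windows 9.49%), the AP-1 motif TGANTCA in 8.73% against 3.91% (6.16%), the GATA motif AGATAA in 9.09% against 4.15% (7.90%), and the steroid receptor hexamer AGAACA in 13.5% against 7.95% (11.8%).

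Other searched letters gave no difference whose interval excluded 0. CCAAT was in 33.5% against 34.1%, the E-box CACGTG in 8.36% against 9.94%, and the forkhead motif TGTTTAC in 3.27% against 2.21%. The palindromic steroid receptor element, which can overlap AGAACA, occurred in 1 of the 275 windows. The palindromic estrogen receptor element occurred in 0 of 275, which allows up to 1.38% (Wilson). The interferon-stimulated response element was in 2.91% against 2.42%, so the ISG15 window was 1 of 8. Both strands were searched, and a match is a description of letters in 300 bases only.

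The values that chose the members, or come from the same lists, are given without a test. Vehicle-only regions had a median fold of 3.17 (range 1.32 to 10.1), shared regions 4.27 (1.33 to 31.2). Median −log10 q was 3.67 against 7.54, and median width 305 against 699 bases. The vehicle-only regions covered 10.7 of 85.6 Mb, so 32.8% of the regions held 12.5% of the acetylated bases. By class of −log10 q, the vehicle-only share was 63.4% under 2, 57.8% from 2 to 3, 51.0% from 3 to 5, 27.1% from 5 to 10, 4.88% from 10 to 20 and 0.0693% (11 of 15865) at 20 and over. The absence was thus concentrated among weakly called regions.

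The R5020 list showed the same gradient in the other direction. Of its 112542 regions, 46909 had no vehicle counterpart, and the share ran from 72.6% under a −log10 q of 2 to 0.267% at 20 and over. In each class the R5020-only share was above the vehicle-only share. The R5020-only regions had a median fold of 3.25 and a median width of 285 bases, close to the vehicle-only values.

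**Figure D1:**
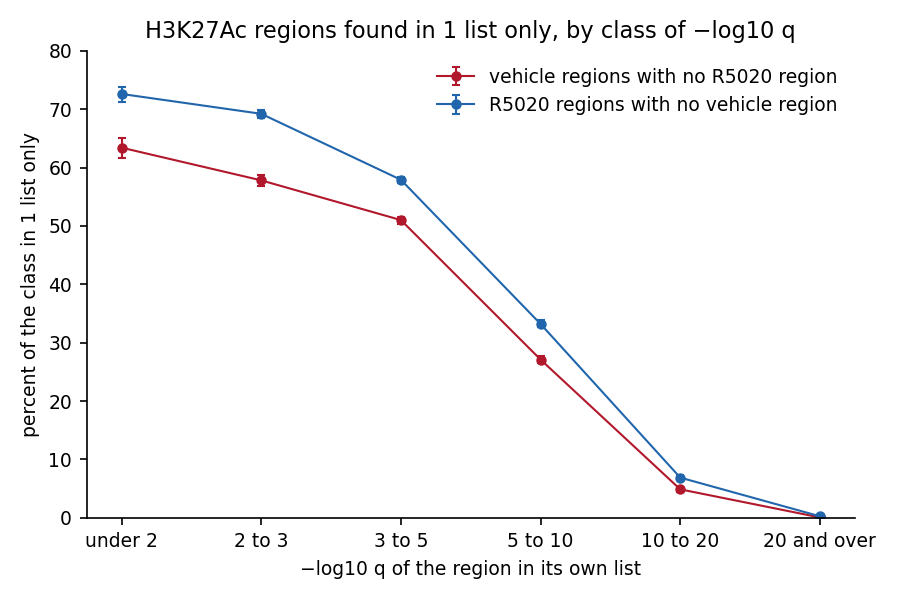
Share of H3K27Ac regions that share no base with the other treatment's list, by class of −log10 q in their own list, with 95% Wilson intervals. The vehicle-only share runs from 63.4% to 0.0693% and the R5020-only share from 72.6% to 0.267%.

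Just inside the rule stood 22 members that adjoined an R5020 region without sharing a base, for example chr1:204292698-204293210 in PLEKHA6, with a fold of 2.78. Just outside stood regions that shared a single base, such as chr4:1013375-1013669 in FGFRL1, with a fold of 4.96. Of the shared regions, 82.8% had over 50% of their bases in common with the R5020 list and 1.33% had under 10%.

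Distance split the members into those beside an R5020 region and those far from any. The median gap to the nearest R5020 region was 1234 bases, with quartiles of 393 and 5396. In all, 29.9% lay within 500 bases of one, and 17.8% (5186 regions) lay more than 10 kb away. For 61.0% of the members within 500 bases, the nearest R5020 region also overlapped another vehicle region. Fold hardly moved with distance: the median was 3.17 in each class up to 10 kb and 3.27 beyond it.

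Members followed one another along the chromosomes. After a vehicle-only region the next vehicle region was also vehicle-only in 43.8% of cases (43.2 to 44.4), against 27.4% (27.0 to 27.7) after a shared region. Over all vehicle regions the share was 32.8%. These shares come from the rule itself and were not matched by class of −log10 q, so they are descriptions. The members formed 16366 runs, 9883 of them of a single region, and 742 runs of 5 or more held 4940 regions. The longest run, chr5:117984630-118234724, held 21 vehicle-only regions over 250 kb with no R5020 H3K27Ac region and no protein-coding gene, while the R5020 PR list had 14 regions there. It contained the member of highest −log10 q, chr5:118006266-118009834, 3569 bases wide with a fold of 10.1 and a −log10 q of 33.1. This region overlapped vehicle PR, Maf1 and POLR3G regions and an R5020 PR region, and the nearest R5020 H3K27Ac region was 22870 bases away.

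A second run packed 20 members into 23.2 kb at chr1:215242130-215265324, again without an R5020 H3K27Ac region or a protein-coding gene. The third, chr3:97247458-97660772, held 19 members and 1 R5020-only region over 413 kb in EPHA6, an ephrin receptor gene. It included chr3:97259248-97260874, with a fold of 7.85 and a −log10 q of 23.2. Runs of 19 regions over 2162 kb around ZPLD1 and of 18 over 727 kb reaching into ADGRL2, an adhesion G protein-coupled receptor gene, each held 1 R5020-only region. The R5020 PR list, with 173115 regions in all, had 5 to 76 regions in each of these runs. Their density was not compared with that of the list elsewhere. In every run 4 or 5 of the 18 to 21 members overlapped 1, beside 15.6% of all members and 50.5% of shared regions.

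Among the other members of highest −log10 q, the region in MECOM, a zinc-finger transcription factor gene, lay at chr3:169389655-169391219 with a fold of 5.78 and was 106114 bases from the nearest R5020 H3K27Ac region. The region near PAX7, a paired-box factor of muscle progenitors (chr1:18598691-18600025), had a fold of 8.15 and a gap of 61640 bases. The region in PALLD, which encodes an actin-binding protein (chr4:168698999-168699685), had a fold of 7.93 and a gap of 10411 bases. All 3 overlapped an R5020 PR region. The region near RMI1 instead lay 980 bases from an R5020 region and did not overlap PR. A region near TRPS1 on chromosome 8, of fold 6.99, overlapped PR in both lists and lay 337 bases from an R5020 H3K27Ac region.

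The PR lists took no part in choosing the members. An R5020 PR region overlapped 15.6% of the vehicle-only regions and 50.5% of the shared regions, against 39.1% of all vehicle regions. The difference was −34.9 percentage points (Newcombe interval −35.5 to −34.3). Since vehicle-only regions were narrower and weaker, the shares were also compared within classes. From a −log10 q of 3 to 5 they were 14.9% and 28.5%, from 5 to 10 they were 20.9% and 39.9%, and from 10 to 20 they were 34.7% and 59.8%. R5020 PR was therefore less frequent at vehicle-only than at shared regions in each class, with every interval below 0. With windows of 1 fixed width at the summit in place of whole regions, the overall shares were 14.2% and 40.0%.

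PR before hormone was rare at members. Vehicle PR regions overlapped 0.598% of vehicle-only and 8.72% of shared regions (6.06% of all), and within classes the differences were small. Under 2 the difference was −0.376 points (−0.944 to −0.0421), and from 5 to 10 it was −0.415 points (−0.737 to −0.0543). From 3 to 5 the difference was −0.0658 points (−0.221 to 0.0868), and from 10 to 20 the shares were 8.16% and 7.20%, a difference of 0.965 points (−1.32 to 3.94). Of the 174 vehicle-only regions with vehicle PR, 74.7% had an R5020 PR region too, against 97.0% of the 5212 shared ones. Most of these 174 regions therefore still had a listed PR region where no acetylated region was listed.

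Against the R5020-only regions, which had similar folds and widths, vehicle-only regions had less R5020 PR and more vehicle PR. R5020 PR overlapped 15.6% of vehicle-only and 21.3% of R5020-only regions, a difference of −5.65 points (−6.21 to −5.09). From a −log10 q of 10 to 20 the shares were 34.7% of 441 and 58.3% of 700 regions. Vehicle PR overlapped 0.598% and 0.102%, and in the same class 8.16% and 0.429%, a difference of 7.73 points (5.38 to 10.7). The PR lists are of very unequal length, 6662 regions with vehicle and 173115 with R5020, so levels are compared only within a list.

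**Figure D2:**
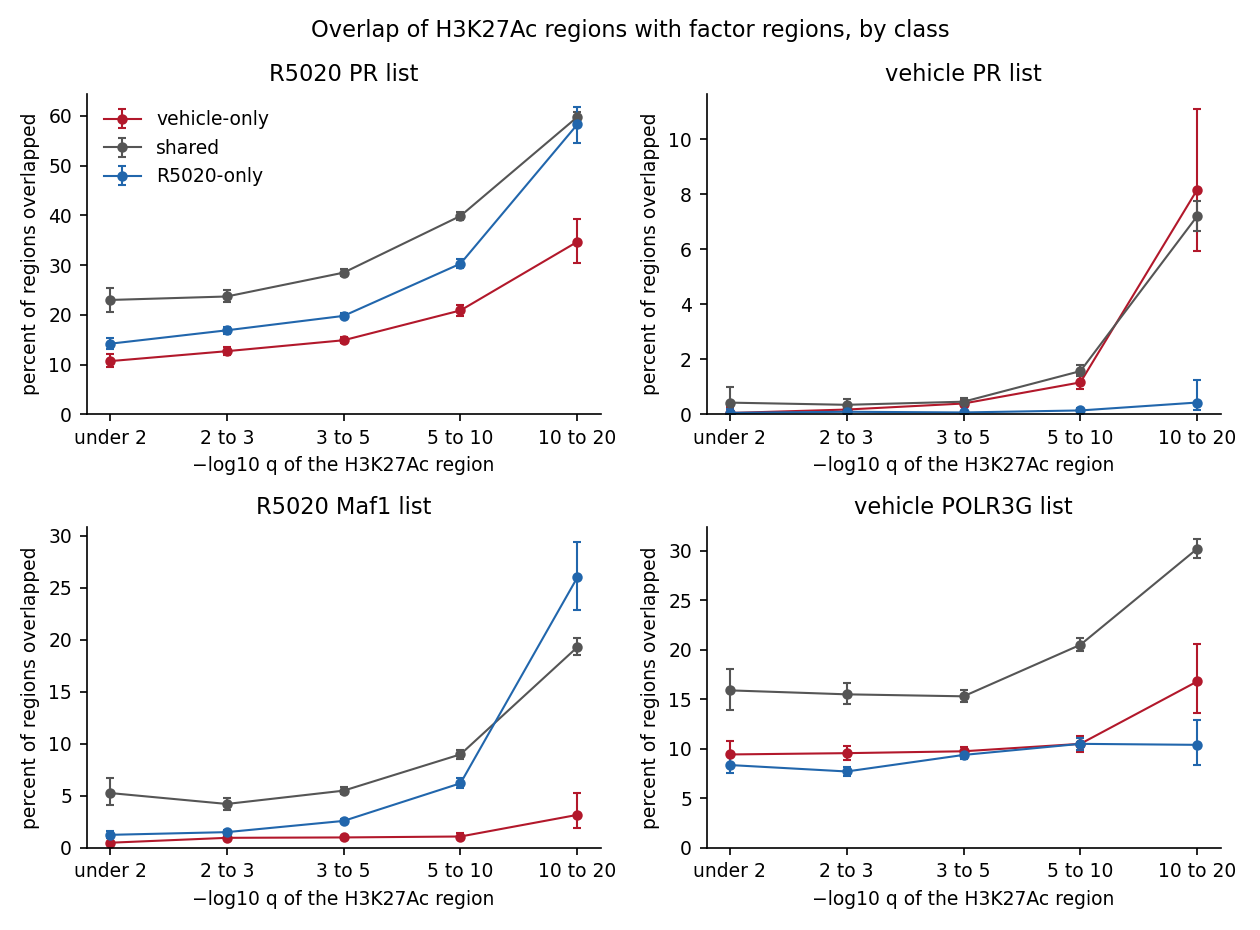
Percent of vehicle-only, shared and R5020-only H3K27Ac regions that share a base with a region of the R5020 PR, vehicle PR, R5020 Maf1 or vehicle POLR3G list, by class of −log10 q of the H3K27Ac region, with 95% Wilson intervals. Vehicle-only regions have the lowest R5020 PR share in each class (34.7% from 10 to 20), while their vehicle PR share in that class is 8.16%, against 7.20% of shared regions. The class of 20 and over, with 11 vehicle-only regions, is not drawn.

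Maf1 after hormone was rare at the members. Maf1 represses RNA polymerase III by binding the enzyme, and its R5020 list had 22638 regions against 3048 with vehicle. An R5020 Maf1 region overlapped 1.01% of vehicle-only and 21.8% of shared regions (15.0% of all), a difference of −20.8 points (−21.1 to −20.4). From a −log10 q of 10 to 20 the shares were 3.17% and 19.3%. R5020-only regions had 3.30% in all, a difference of −2.29 points (−2.49 to −2.09), with 1.51% against 0.962% of members from 2 to 3 and 26% against 3.17% from 10 to 20. Vehicle Maf1 overlapped 0.124% and 3.90% (2.66% of all).

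POLR3G is a subunit of RNA polymerase III that is exchanged with POLR3GL and is abundant in proliferating cells. Vehicle POLR3G regions overlapped 9.94% of vehicle-only and 33.9% of shared regions (26.1% of all), a difference of −24.0 points (−24.5 to −23.4). From a −log10 q of 3 to 5 the shares were 9.75% and 15.3%. R5020-only regions had a share of 9.09% in all and 9.38% in that class, so the low share was not particular to the members. R5020 POLR3G overlapped 5.47% and 27.6% (20.4% of all). Among regions with vehicle POLR3G, 34.4% of 2893 vehicle-only and 64.4% of 20259 shared regions also had R5020 POLR3G, a difference of −30.1 points (−31.9 to −28.2). At a −log10 q of 3 to 5 the same shares were 34.3% and 44.9%. From 2 to 3 they were 37.5% and 42.5%, a difference of −5.00 points (−10.2 to 0.304). With windows at the summit the difference was −4.13 points (−9.47 to 1.26) from 2 to 3 and −4.79 points (−16.4 to 8.73) from 10 to 20. The difference within classes was thus smaller and in some not told from 0. These R5020 values rest on a group in which 1 of 3 libraries is tagged ethanol. The core subunits were rare at members: POLR3A overlapped 0.0756% with vehicle (0.361% of all) and 0.0893% with R5020 (0.390%), and POLR3C 0.0103% (0.448%) and 0.0137% (0.473%), the latter in a group with 2 of 3 libraries tagged ethanol. For vehicle POLR3GL the shares were 0.131% and 0.141% (0.137% of all), a difference of −0.0100 points (−0.0587 to 0.0456), and R5020 POLR3GL, with 1 of 3 libraries tagged ethanol, overlapped 0.110% of members (0.117% of all). Brf1 overlapped 0.0550% of members with vehicle (0.250% of all). With R5020 it overlapped 0.103% of members and 0.894% of shared regions (0.635% of all).

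Members far from any R5020 region had a different mix of features from members beside one. R5020 PR overlapped 17.8% of those within 500 bases, 12.7% of those from 1 to 10 kb and 20.0% (18.9 to 21.1) of those beyond 10 kb. Vehicle POLR3G ran the other way, from 15.1% within 500 bases to 1.12% (0.866 to 1.44) beyond 10 kb. Shares over a protein-coding gene were 59.2% and 45.9% in the same classes. Distance was measured to the list that defines the members, so these classes are descriptions.

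**Figure D3:**
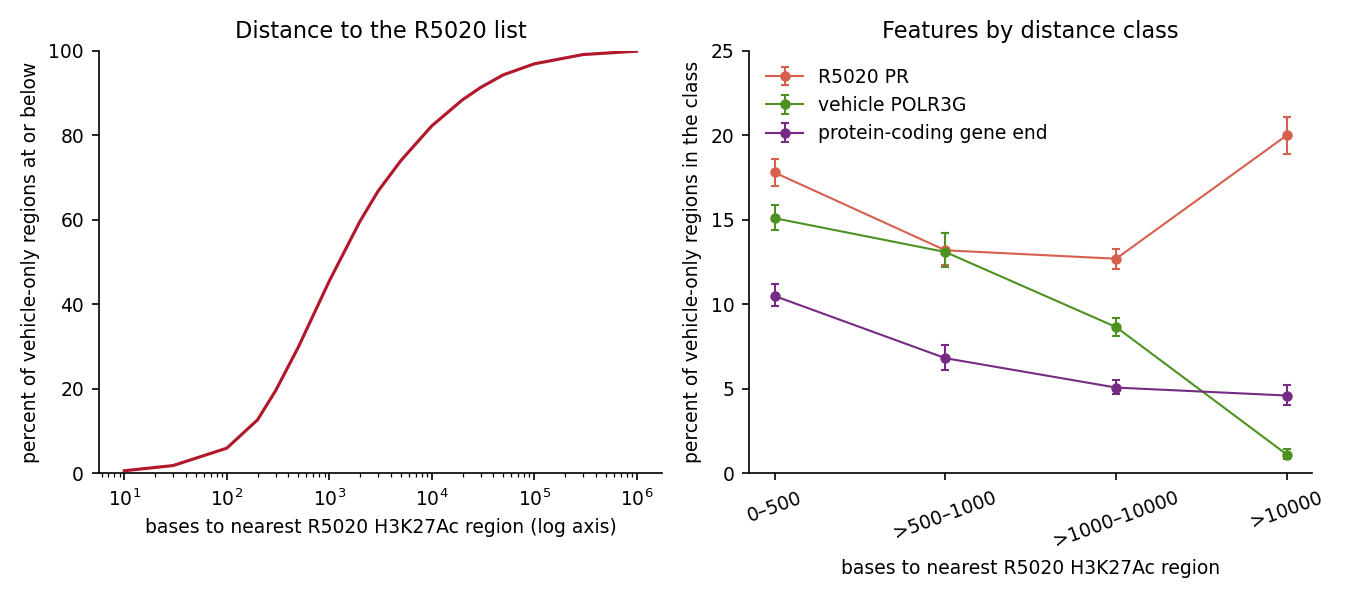
Left, cumulative percent of the 29107 vehicle-only regions by distance in bases to the nearest R5020 H3K27Ac region (log axis). Right, percent of vehicle-only regions in each distance class that overlap R5020 PR or vehicle POLR3G, or lie within 1 kb of a protein-coding gene end, with 95% Wilson intervals. Vehicle POLR3G goes from 15.1% to 1.12% with distance, while R5020 PR is 17.8% in the nearest class and 20.0% in the farthest.

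Members lay at gene ends less often than shared regions and slightly more often than R5020-only regions. The share within 1 kb of a start or end of protein-coding genes was 6.90% for vehicle-only and 26.3% for shared regions (20.0% of all), a difference of −19.4 points (−19.9 to −19.0). From a −log10 q of 3 to 5 the shares were 7.01% and 9.03%, and from 10 to 20 they were 6.80% and 22.2%. Of the R5020-only regions 6.21% lay there, 0.687 points below the vehicle-only share (0.325 to 1.05). Over a protein-coding gene lay 55.1% and 65.3% (62.0% of all). Of 14681 start sites with a vehicle region within 1 kb, 377 had no R5020 region within 1 kb, which is 2.57%, while 645 sites with an R5020 region had no vehicle region (4.31%). Of 19974 protein-coding genes, 353 had a member within 1 kb of an end and no R5020 region within 1 kb of either end. A share among genes with any vehicle region at an end is not given for these 353 genes. TMCC2 led these by −log10 q, followed by XKR7, LIN28A (an RNA-binding protein that blocks let-7 maturation), LOC124904581 and HBQ1, a globin gene of the alpha cluster. Next came TPRG1, RYR3 (a calcium release channel), CHST8 (a carbohydrate sulfotransferase), ZG16 and EYA1 (a developmental phosphatase).

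Gene lists were described by all vehicle regions within 10 kb of a gene, beside the 32.8% over all regions. A share computed from the overall class rates at each list's own −log10 q values is given where it helps. The lists of progestin-responsive genes (68 of 221 regions, 30.8%, 25.1 to 37.1), histone acetylation machinery (98 of 302, 32.5%), and interferon and NF-kB genes (36 of 115, 31.3%) were near the background. Estrogen-responsive genes (149 of 418, 35.6%) and luminal identity genes (140 of 394, 35.5%, 31.0 to 40.4) were near it too. Of all protein-coding genes with a vehicle region, 62.1% had a vehicle-only one (9880 of 15910), as did 17 of 27 progestin-responsive, 24 of 28 estrogen-responsive and 16 of 22 luminal genes. All 22 luminal genes had vehicle regions, with a median highest fold of 18.7. Of 20 markers of other cell types 14 had any (25 of 72 regions vehicle-only, 34.7%), with a median highest fold of 7.27, and MS4A1, PECAM1, COL3A1, ALB, APOA1 and MYOD1 had none. The luminal markers of the labelled line were therefore all acetylated, and these 6 markers of B cells, endothelium, fibroblasts, liver and muscle had no vehicle region. In the R5020 list PECAM1 had 3 regions and APOA1 had 5, and the other 4 markers had 0.

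Lower shares were found at cell cycle genes, with 18 of 106 regions vehicle-only (17.0%, 11.0 to 25.3, against 25.9% at the class rates), and at immediate early genes, with 34 of 150 (22.7%, 16.7 to 30.0, against 24.1%). Of the 27 immediate early genes, 26 had vehicle regions, and 8 of these had no vehicle-only one, among them JUN, KLF4, DUSP6 and ZFP36. CCND1, CCNE1, CCNA2 and RB1 were among 7 of 19 cell cycle genes with vehicle regions that had none. Of all protein-coding genes with a vehicle region, 37.9% had none (6030 of 15910), so neither count was above the share of all genes. The largest share was at basal and mesenchymal genes, 45 of 111 (40.5%, 31.9 to 49.8, against 34.9% at the class rates).

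**Figure D4:**
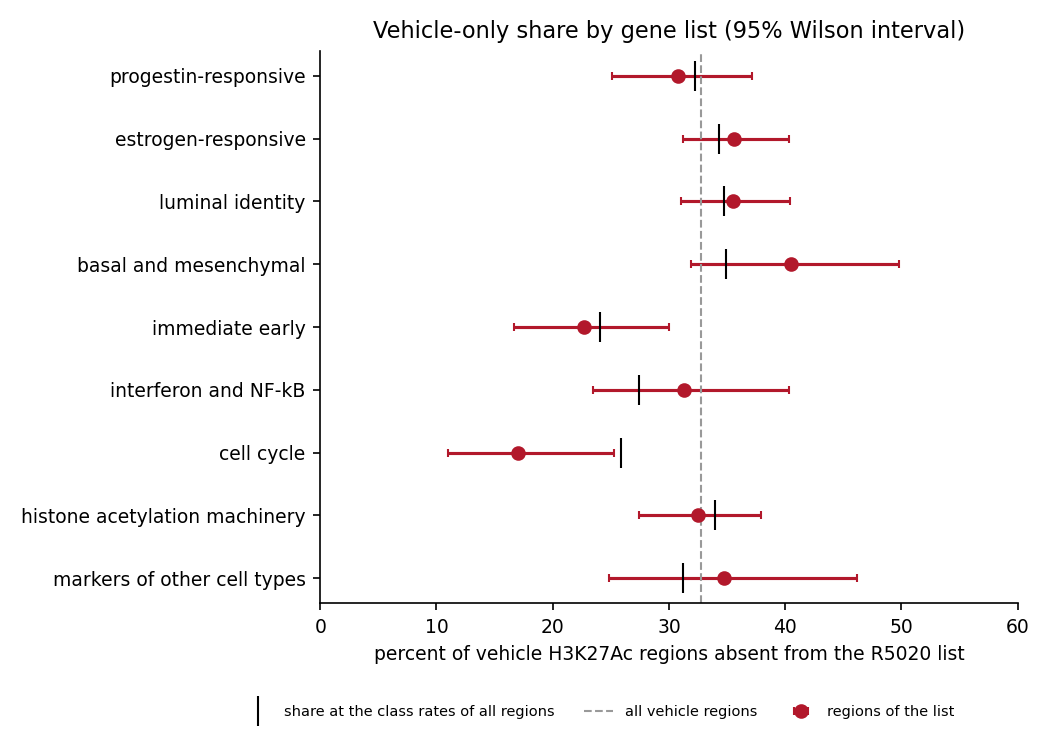
Percent of vehicle H3K27Ac regions within 10 kb of the genes of each list that are vehicle-only (points, 95% Wilson intervals), with the share expected from the class rates of all regions (bars) and the share over all regions (dashed line, 32.8%). Cell cycle genes are lowest at 17.0% and basal and mesenchymal genes highest at 40.5%.

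PGR, the gene of PR itself, belongs to both the estrogen-responsive and the luminal list and held the most vehicle-only regions of any list gene. It had 60 vehicle regions, 34 of them vehicle-only where the class rates give 22.8, and 39 R5020 regions, 6 of them R5020-only. Listed acetylated sequence was 46.0 kb with vehicle and 23.7 kb with R5020. The highest fold was 29.3 with vehicle and 31.8 with R5020, and all 3 PGR start sites had an R5020 region within 1 kb. The 34 members had folds from 2.19 to 5.86 and lay at most 4134 bases from an R5020 region. The one of highest −log10 q was chr11:101096952-101097279, inside the gene. Of the 34, 21 overlapped vehicle POLR3G and 25 overlapped R5020 POLR3G, against 9.94% and 5.47% of all members, while 3 overlapped R5020 PR. POLR3G was listed across the whole locus, with 72 vehicle and 74 R5020 regions. It also lay over shared PGR regions, so the overlap was not particular to the members. Of 2681 genes with 10 or more vehicle regions, 225 (8.39%) had a vehicle-only share at or above that of PGR, so many other genes reached its share. In those 2681 genes the median vehicle-only share was 27.3%, and 27.4% of them had fewer R5020 than vehicle regions.

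HDAC9, a class II deacetylase gene of 916 kb, had the highest vehicle-only share of the acetylation machinery list. Of its 21 vehicle regions 18 were vehicle-only, where class rates give 6.70, and the R5020 list held 5, covering 2.15 kb against 10.8 kb. The strongest members were chr7:18570132-18571014, with a fold of 5.62, and chr7:18845748-18846184, with a fold of 4.62 and 270618 bases from any R5020 region. R5020 PR overlapped 10 of the 18, against 15.6% of all members, and the gene held 63 R5020 PR regions. R5020 PR also lay over shared HDAC9 regions, so the overlap was not particular to the members. NCOA3, a steroid receptor coactivator, had 10 of 19 regions vehicle-only but 23 R5020 regions. Of the 31 genes of the list, 11 had no vehicle-only region, among them CREBBP, HDAC1, HDAC2 and HDAC3. Over all genes with a vehicle region that share was 37.9%.

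**Figure D5:**
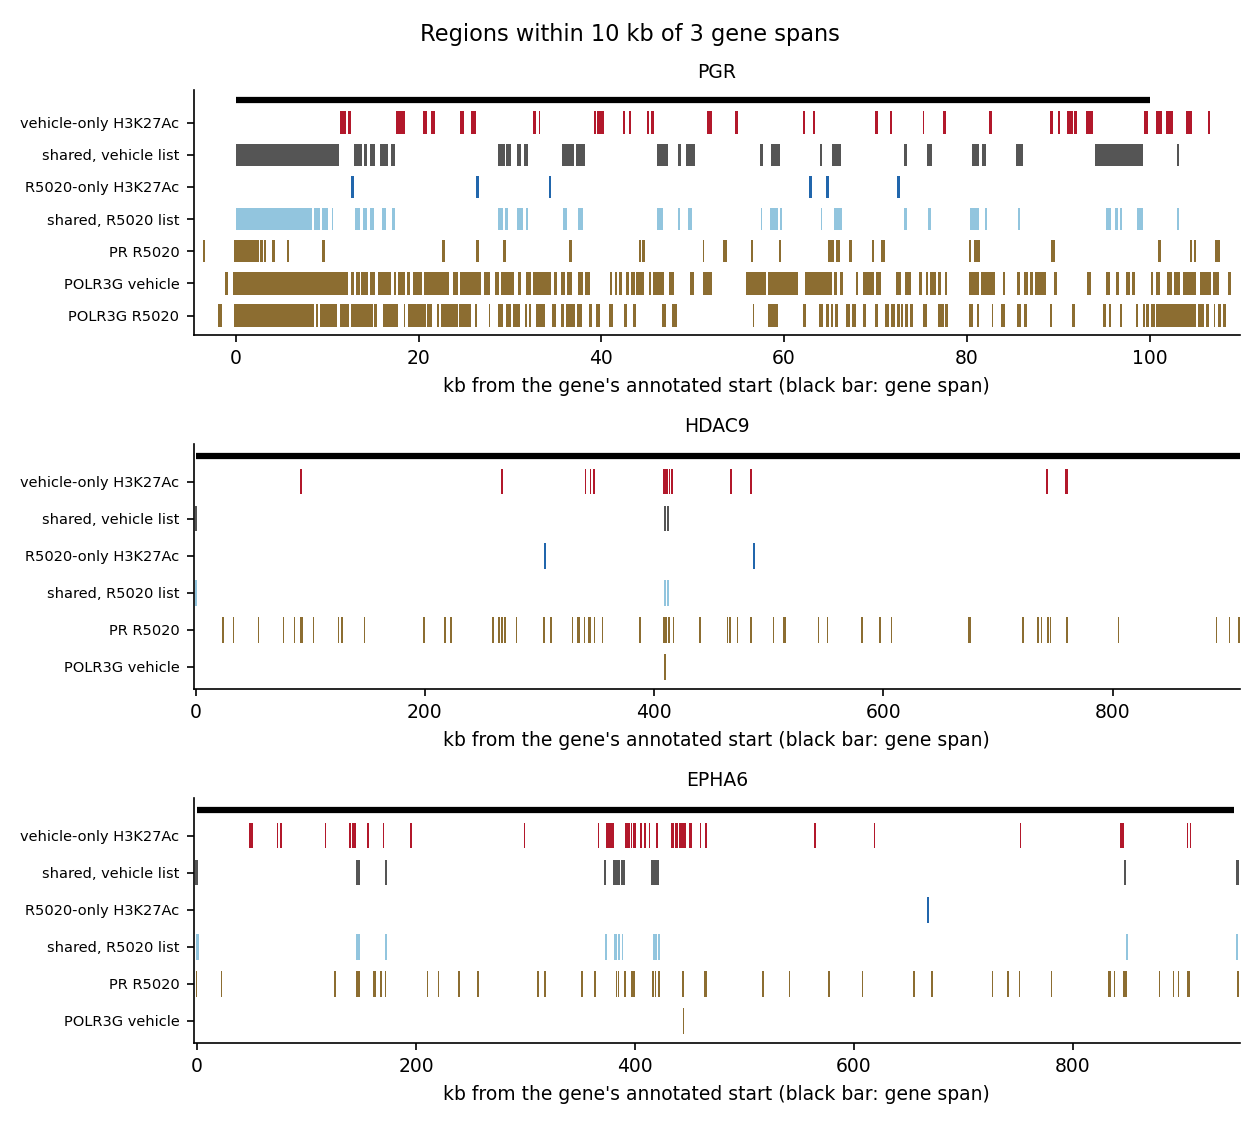
Regions within 10 kb of PGR, HDAC9 and EPHA6, in kb from the annotated start of the gene, with vehicle-only, shared and R5020-only H3K27Ac regions, R5020 PR regions and POLR3G regions on separate rows (very narrow regions are widened to be visible). PGR has 34 vehicle-only regions interleaved with shared ones and with POLR3G, while 11 of 18 at HDAC9 and 29 of 55 at EPHA6 lie more than 10 kb from an R5020 region, almost without POLR3G.

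Among the other estrogen-responsive genes, TFF1, a secreted trefoil peptide, had 5 of 8 regions vehicle-only, none of them within 1 kb of an R5020 region, and listed sequence of 4.54 kb with vehicle and 0.873 kb with R5020. BCL2, an inhibitor of apoptosis, had 14 of 23 vehicle-only and 11.5 against 6.09 kb. GREB1, an estrogen receptor cofactor, had 12 of 52 vehicle-only and 63 R5020 regions. RARA had 4 of 20 and 40 R5020 regions, none of them R5020-only, so that R5020 regions were more numerous but lay over vehicle ones.

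Progestin-responsive genes included both kinds. AREG, an EGF receptor ligand, had 6 of 8 regions vehicle-only and 4 R5020 regions. ELF5, an ETS factor of alveolar differentiation, had 6 of 10, PRLR, the prolactin receptor, 21 of 54 where class rates give 20.8, and EHF 10 of 26 with 0 R5020-only regions. FKBP5, an immunophilin of the steroid receptor complex, had 3 of 16 vehicle-only and 15 R5020-only regions. ZBTB16 had 1 of 3 vehicle-only and 28 R5020-only regions.

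In the basal and mesenchymal list the most members were at TP63, a transcription factor gene of basal epithelium, with 16 of 27 regions vehicle-only. TP63 had 25.2 kb listed with vehicle and 12.1 kb with R5020. Its strongest member was chr3:189808275-189809076, with a fold of 5.35 and an R5020 PR region. Of the 15 genes of this list with vehicle regions, 6 had no member, among them KRT14, VIM, ZEB1 and TWIST1. The share over all genes with a vehicle region was 37.9%. Of the interferon genes, OAS1, which makes the activator of RNase L, had 7 of 10 regions vehicle-only, 0 of them within 1 kb of an R5020 region. STAT2 and IRF7, both transcription factors of the interferon response, each had 5 of 9. IRF2, IFIT2, IFIT3, ISG20, OAS2 and TNFAIP3 had 1 to 4 vehicle regions and no vehicle-only one. They were 6 of the 24 genes of this list with vehicle regions, against 37.9% of all such genes. In the list 13 genes had more R5020 than vehicle regions and 5 had fewer. Of all genes with a vehicle region 22.9% had fewer R5020 regions, so 5 of 24 was near that share. ISG15 had 9.26 kb listed with vehicle and 3.44 kb with R5020, with 5 regions in each list.

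Over all protein-coding genes with 10 or more vehicle regions, 11.6% had more than 50% of them vehicle-only. The highest share was 12 of 13 at ANKRD30A, a breast differentiation antigen, followed by CACNA2D3, a calcium channel subunit (10 of 11), HDAC9 and NPEPPS (12 of 14). RERG, a small GTPase of the Ras family, had 22 of 26 regions vehicle-only and 5 R5020 regions, and MUC16, the CA-125 mucin, 29 of 35 and 11 R5020 regions. Listed sequence at MUC16 was 19.8 kb with vehicle and 5.02 kb with R5020, and the highest fold 14.7 and 6.49. EPHA6 had the most members of these genes, 55 of 67 where class rates give 24.7, and 18 R5020 regions. Of its 55 members 29 lay more than 10 kb from an R5020 region. Its strongest vehicle region, a shared one over the start of the gene, had a fold of 12.8 and its R5020 counterpart 10.2. Another shared region had a fold of 7.87 with vehicle and 13.0 with R5020, the highest R5020 fold at the gene. These genes were ranked by the share itself, so their position is a description.

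At tRNA genes the members were few. A vehicle H3K27Ac region lay within 200 bases of 173 of 422 tRNA genes, and a vehicle-only region at 14 of them, of which 10 had no R5020 region within 200 bases. POLR3A, the largest subunit of the polymerase, was listed at 98.3% of the 173 genes with either treatment. Of the 10 it was listed at 8 with vehicle and at the same 8 with R5020, among them TRN-GTT6-1, TRT-TGT2-1 and TRY-GTA1-1. R5020 PR was listed at 2 of the 10, TRN-GTT6-1 and TRC-GCA9-4, against 54.3% of the 173, and R5020 Maf1 at 0, against 53.2%.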

How the data were processed

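H3K27Ac and 7 other antibodies were profiled in T47D cells, with 16 deposited peak lists in narrowPeak layout, 1 per antibody and treatment. Per the submitters' processing notes, cutadapt, Bowtie2, MACS2 and the hg38 build were used. Their versions, settings and the way replicates were combined are not given in the sources used here. The authors deposited for each region a fold (a ratio over background), a −log10 q and a summit offset, given as a number of bases from the start. These were used to describe, rank or class regions within a list. Samples were grouped by title.

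Regions on chromosomes 1 to 22 and X were kept (190 vehicle H3K27Ac rows elsewhere were left out, 41 of them without an R5020 counterpart). No rows of either H3K27Ac list overlapped. A vehicle-only region shared fewer than 1 base with any R5020 region. Shares carry 95% Wilson intervals and differences Newcombe intervals, with no p-value, since there is 1 list per group. Class rates are the vehicle-only shares of all regions in 6 classes of −log10 q. Interval and overlap computations were tested on simulated data, where all 6000 planted absences among 20000 regions were recovered. Gene spans came from a RefSeq table of GRCh38.p14 (19974 protein-coding genes) and promoters from its promoter table, which has no entry for many genes.

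Regions were named by rule: the highest by −log10 q (over all members, beyond 10 kb, and with PR), the 5 longest runs, 10 genes at gene ends, the genes of 9 lists and the tRNA genes. Some named loci are not reported here. The genes with the highest vehicle-only shares, HDAC9's and PGR's details, the interferon element and 3 of the sequences were added after values were seen. The members and lists were chosen with earlier results of these data known. Python 3.11.15, numpy 2.4.6, pandas 2.3.3, scipy 1.17.1 and matplotlib 3.10.9 were used.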

Additional observations from a re-analysis of the deposited data

How the results depend on the processing

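The share of vehicle regions absent from the R5020 list, 32.8%, moved with its definition. It was 27.1% with a −log10 q of at least 5 in every list, 31.8% with a fold of at least 3, and 38.3% with equal numbers of top regions. It was 17.9% and 5.84% when no R5020 region was allowed within 1 kb or 10 kb, 42.1% when the summit had to be covered, and 61.6% when an overlap of 50% of each region was required. With a −log10 q of at least 5 in the vehicle list alone, an alternative added after seeing the data, it was 13.5%. The differences between vehicle-only and shared regions kept their direction, with intervals that excluded 0, in all 41 recomputations, which included a fixed window at the summit (also added after seeing the data). They ranged from −38.7 to −20.3 points for R5020 PR, from −25.6 to −13.7 for R5020 Maf1, from −27.5 to −18 for vehicle POLR3G, from −41.8 to −21.5 for POLR3G kept with R5020, and from −30.2 to −16.3 for gene ends. None of the 41 was split by class of −log10 q, and within classes some intervals for POLR3G kept with R5020 included 0. No paired analysis was possible because each group is 1 list without replicate values. For the same reason no replicate could be left out. Depth is unknown, so fewer reads and lower acetylation cannot be told apart for regions near the detection limit.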

Other observations

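The vehicle-only share of regions differed between chromosomes, from 28.1% on X to 40.2% on chromosome 21. Among regions with a −log10 q of 3 to 5 alone the chromosomes ranged from 42.7% to 62.1%. Of the 2008 members within 1 kb of a protein-coding gene end, 917 lay within 500 bases of an R5020 H3K27Ac region.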
